A study of Mus musculus with 2 samples.

Results

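The cells described here were Ccl5-high thymic iNKT cells, which carried the transcript of the chemokine Ccl5 in amount and none of Izumo1r, a surface protein of the folate receptor family found on less mature iNKT cells. They were selected on the counts of those genes alone. A cell was a member if it held at least 4 unique molecular identifiers (UMIs, each standing for 1 captured transcript) of Ccl5 and 0 of Izumo1r. The search covered cells with at least 1000 genes, at most 5% mitochondrial UMIs and 10 or more hashtag UMIs, 80% or more of them on a single one of the hashtag rows 12, 14, 16 or 18. Of 5758 such cells, 904 were members, or 15.7% (95% Clopper-Pearson interval 14.8 to 16.7%, counting error only). The 8 hashtag rows in use held 10007 assigned cells, out of 16179 distinct barcodes in 1 droplet library.

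The study compared iNKT cells of Ctrl mice with those of T-KO mice, in which Kidins220 fl/fl alleles are deleted by a Cre recombinase under the proximal Lck promoter, which acts early in T cell development. The mice are on a C57BL/6 background, no treatment is stated, and for age the methods give a range over all mice of the study and no value for the animals of this experiment. Thymi of 4 animals were pooled per genotype, and TCRβ+ CD1dt+ cells were sorted as stage 0 (CD24+ NK1.1-) or stage 3 (NK1.1+ CD24- CD44+), in parallel duplicates that were each stained with a hashtag antibody. No source used here ties a hashtag row to a stage or genotype, so the rows served only as blocks within which members were compared with all other cells. The p-values therefore rest on how the difference between members and others varied over the 4 rows, with a spread shared in part between genes. As the rows come from pooled thymi, that variation may be technical.

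iNKT cells are T cells with an almost invariant T cell receptor that recognises glycolipids on CD1d. Those of the iNKT1 type make interferon gamma, carry NK cell receptors and can hold cytotoxic granules. Late in their maturation they share many transcripts with NK cells and effector T cells. Ccl5 attracts T cells and monocytes and is transcribed at high levels by memory and effector lymphocytes.

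Row 12 held 342 members among 1752 cells (19.5%, interval 17.7 to 21.5%) and row 14 held 355 among 2162 (16.4%, interval 14.9 to 18.05%). Row 16 held 75 among 577 (12.998%, interval 10.4 to 16.02%) and row 18 held 132 among 1267 (10.4%, interval 8.79 to 12.2%). The intervals of rows 12 and 18 do not overlap. With a stricter hashtag assignment the shares were 19.8%, 18.7%, 19.9% and 12.5%, which put row 16 no longer below rows 12 and 14. The median depth was 3492 UMIs in members and 3371 in the other cells, and the median share of mitochondrial UMIs was 1.65% and 1.75%.

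**Figure D1:**
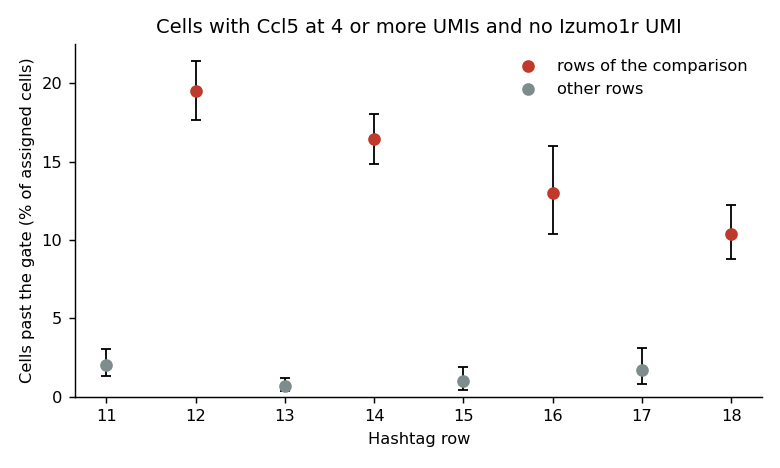
Share of assigned cells with at least 4 Ccl5 UMIs and no Izumo1r UMI (%, y axis) in each hashtag row (x axis), with 95% Clopper-Pearson intervals as bars. Rows 12, 14, 16 and 18 (red) lie between 10.4% and 19.5%, and the other rows (grey) between 0.687% and 2.04%.

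Ccl5 chose the members, so its values are a description. Members held 4 to 70 Ccl5 UMIs with a median of 10, and the median was 10, 10, 9 and 10.5 in rows 12, 14, 16 and 18. They carried 78.9% of all Ccl5 UMIs of the 4 rows, while 61.9% of the cells had none. Just inside the threshold were 112 cells at 4 UMIs, and just outside it 150 cells at 3 UMIs without Izumo1r. A further 147 cells, 13.99% of the 1051 with at least 4 Ccl5 UMIs, were no members because they held Izumo1r. Free RNA gave little Ccl5: of 424 B-like cells (at least 5 UMIs of Cd79a and Cd79b, no CD3 UMI, mostly of the other rows), 8.73% had a Ccl5 UMI and 2 cells reached 4, at a median depth of 6232 UMIs.

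The cells carried iNKT1 transcripts, as their label says. A UMI of Nkg7, a granule membrane protein, was found in 99.1% of members, of Il2rb, the beta chain of the interleukin 15 receptor, in 92.5%, of Klrb1c, which encodes NK1.1, in 68.4%, and of Tbx21, the gene of the transcription factor T-bet, in 53.2%. The shares in B-like cells were 15.1%, 24.8%, 5.66% and 7.78%. Of the 7 iNKT1 identity genes tested against the other cells, Nkg7 was higher and Cxcr3 lower, with a median log2 fold change of -0.02. The segment of the invariant receptor, Trav11 with its copies, made up 26.3% (22.9 to 29.95%) of TRAV UMIs in members and 29.4% (27.95 to 30.9%) in the others. The Trbv13 segments, which encode Vβ8, made up 69.4% (67.96 to 70.7%) and 70.8% (70.3 to 71.4%) of TRBV UMIs. The stage 0 list of 6 genes summed to between 171 and 226 CPM (UMIs per 1e+06 UMIs) over the rows in members and between 224 and 279 in the others, with none at 0 in members. With the scaling of the reported fit neither edgeR nor DESeq2 called a gene of it, and 2 had an unadjusted p under 0.05 in edgeR. Without TMM scaling 1 gene of it, the Helios gene Ikzf2, was lower (-0.54, adjusted p = 0.0323), as it was without the Ncr1-bearing cells described below (-0.56, adjusted p = 0.0286). The sorted stage of these cells cannot be read from the sources used here.

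Across all genes other than Ccl5 and Izumo1r, the genes that were higher in members included some of those for NK cell receptors, granule proteins, S100 proteins, egress and ribosomal proteins, and the lower ones some early iNKT genes. Of 10351 genes tested, 439 passed an adjusted p of 0.05 (4.24%), with 288 higher in members (2.78%) and 151 lower (1.46%), by edgeR's quasi-likelihood test on counts summed per row and class with the row as a block. Levels below are CPM, taken over all UMIs of the class, and given for rows 12, 14, 16 and 18 in that order. Fold changes are on the log2 scale after TMM scaling, from the sums of 4 rows. The value after ± is a standard error worked back from the F statistic of the test. It draws on a spread shared in part between genes and is not the scatter of the 4 row values. Scaling by library totals without TMM moved the median of all genes from 0.00 to -0.08 and gave 178 genes higher and 271 lower. In 2.25% of all genes every row of members lay above every row of the other cells, and in 6.9% below.

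Gzma, the gene of granzyme A, a serine protease of cytotoxic granules, lies at chr13:113093825-113100981 (GRCm38). It stood at 328, 374, 241 and 419 CPM in members and at 65.9, 76.3, 84.2 and 117 in the other cells. Every row of members lay above every row of other cells (2.17 ± 0.08, adjusted p = 1.03e-26). The transcript was uneven among members: 25.4% of them held any, and 10 cells held 28.8% of its UMIs. With each cell thinned to 2500 UMIs, 21.4% of 831 members and 9.498% of 3927 other cells held it, beside 2.99% of B-like cells.

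Of the 15 cytotoxic granule genes tested, 7 were higher and 0 lower, with a median log2 fold change of 0.29 against 0.00 over all genes tested. Nkg7 was at 1685, 1847, 1902 and 2014 CPM in members and at 1485, 1527, 1376 and 1454 in the other cells (0.40 ± 0.04, adjusted p = 8.73e-10). Prf1, the gene of the pore-forming protein perforin, was at 69.1, 72.8, 83.5 and 77.3 against 61.8, 56.01, 36.01 and 43.3 CPM (0.53 ± 0.12, adjusted p = 0.00414), and lost its call without row 18 (adjusted p = 0.0583). The granzyme B gene Gzmb was higher in 3 of 4 rows (0.29 ± 0.07, adjusted p = 0.00271) and lost its call without rows 12 or 14 (adjusted p = 0.158 and 0.346 in turn). Serpinb6b and Serpinb9, protease inhibitors of which Serpinb9 blocks granzyme B, differed by 0.48 ± 0.09 (adjusted p = 3.60e-04) and by 0.46 ± 0.11 (adjusted p = 0.00568), the latter losing its call without row 14 (adjusted p = 0.205).

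Gzmc, the granzyme C gene, was called as well (1.02 ± 0.13, adjusted p = 8.98e-08), but rested on few cells. Its levels were 8.94, 7.74, 446 and 332 against 6.84, 14.5, 176 and 176 CPM, high in rows 16 and 18 in both groups. Without cells that held a UMI of Ncr1, the gene of the NK cell receptor NKp46, an alternative added after the data were seen, the difference was -0.19 (adjusted p = 0.805). It was -0.13 (adjusted p = 0.893) without cells bearing transcripts of other lineages.

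The Ncr1-bearing cells were 20 of the 904 members (2.21%) and 23 of the 4854 others (0.474%). They were 1 of the members of row 12, 1 in row 14, 6 in row 16 and 12 in row 18. Among members they held 82.7% of the Gzmc UMIs, in 4 cells, and 43.6% of those of Tyrobp. Their level of Cd3e, a chain of the T cell receptor complex, was 364 (246 to 520.1) CPM (95% Poisson interval), against 1288 (1249 to 1327) in the other members. Gzma was at 60.7 (19.7 to 142) against 359 (339 to 380.1). Of the 5 genes on the NK cell list 3 were tested and 2 were higher, Ncr1 and Gzmb, the latter also a gene of cytotoxic T cells. That list summed to between 372 and 629.7 CPM over the rows in members and between 265 and 555 in the others, with no gene at 0 in members. Gzmb alone gave 412 of 439 CPM in members and 376 of 390 in the others, so the sum is mainly a level of Gzmb. The call of Ncr1 itself rests on row 18, without which too few UMIs were left to test it.

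Many NK receptor genes lie side by side on chromosome 6, at chr6:128609227-131247362 (GRCm38, GENCODE M21), the natural killer gene complex. Of 26 genes tested in that stretch, 8 were higher and 0 lower, with a median of 0.29. Of the 19 among them whose symbol starts with Klr, 7 were higher, against 2.78% of all genes. The complex encodes receptors that inhibit NK cells and receptors that activate them.

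Klrc1, which encodes the inhibitory receptor NKG2A, was at 301, 299, 321 and 377 CPM in members and at 152, 160.1, 118 and 165 in the other cells. The groups of rows did not overlap (1.12 ± 0.07, adjusted p = 2.09e-17), and after thinning 35.9% of members and 18.004% of other cells held the transcript. Its partner chain CD94, encoded by Klrd1, gave 462, 509, 604 and 686 against 502, 559, 548 and 655 CPM (0.03 ± 0.05, adjusted p = 0.883).

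Klre1, a receptor of the same lectin family, was at 218, 219.9, 228 and 251 CPM in members and at 128, 146, 87.7 and 132 in the other cells, again without overlap (0.87 ± 0.08, adjusted p = 1.51e-11). Klrk1, the gene of the activating receptor NKG2D, was at 429.9, 449.9, 536 and 583 against 366, 376, 406 and 410.0 CPM, also without overlap (0.40 ± 0.05, adjusted p = 7.00e-07). Klrb1c gave 312, 385, 273 and 405 against 399, 440.3, 337 and 449 CPM, with members below the others in each row (-0.17 ± 0.06, adjusted p = 0.0698). It passed as lower when TMM scaling was left out, at -0.25 (adjusted p = 0.00235).

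Cd244a, which encodes the SLAM family receptor 2B4, was at 19.5, 17.8, 32.1 and 37.7 CPM in members and at 4.56, 4.32, 7.61 and 10.2 in the other cells (2.08 ± 0.24, adjusted p = 1.47e-08), and at 1.78 (adjusted p = 5.25e-05) without the Ncr1-bearing cells. Of 15 NK receptors outside the Ly49 family, 5 were higher and 0 lower, with a median of 0.31. Without TMM scaling 3 others of the list, Klrb1c, Cd160 and Cd226, were lower. Without the Ncr1-bearing cells 14 of the list were tested, with 4 higher, 0 lower and a median of 0.14. DESeq2 called 3 higher and 0 lower, and with the gate set on thinned cells 6 were higher and 1 lower.

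Ly49 receptors bind MHC class I and are switched on gene by gene in NK and iNKT cells. Of 8 tested, 4 were higher and 0 lower, with a median of 0.33. DESeq2 called 1 higher and 0 lower, as did the fit without the row as a block. With cells matched on depth 3 were higher and 1 lower, and with the gate set on thinned cells 4 and 1. The genes are closely alike in sequence, so the split of reads among them is uncertain. Klra5 was at 69.9, 61.9, 38.5 and 71.6 CPM in members and at 32.8, 33.9, 29.9 and 25.2 in the other cells, without overlap (1.09 ± 0.14, adjusted p = 7.69e-08). Klra9 was at 799, 826, 498 and 460.0 against 693, 748, 245 and 275 CPM, with members above the others within 4 of 4 rows while the groups overlapped (0.43 ± 0.07, adjusted p = 1.95e-05). Klra8 differed by 1.16 ± 0.24 (adjusted p = 0.00131), on 66 UMIs in members.

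Klra7, which encodes Ly49G and is a marker given with the rule, was at 205, 229, 161 and 234 CPM in members and at 204, 190.5, 86.7 and 138 in the other cells. Row 12 showed almost no difference and row 16 the widest ratio, and the groups of rows overlapped (0.39 ± 0.08, adjusted p = 0.00207). The call was lost without row 18 (adjusted p = 0.0804).

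With cells thinned to 2500 UMIs, 85.7% of members held a UMI of at least 1 Ly49 gene, against 71.9% of other cells. The members' share was 89.9%, 91.1%, 71.8% and 69.8% in rows 12, 14, 16 and 18, and that of the others 80.2%, 81.9%, 52.01% and 53.9%. In each row members were above the others, and rows 12 and 14 were above rows 16 and 18 in both groups. Among members of the 4 rows together, 85.4% of those with Klra7 also held Klra9, against 68.8% of those without, higher in 4 of 4 rows.

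**Figure D2:**
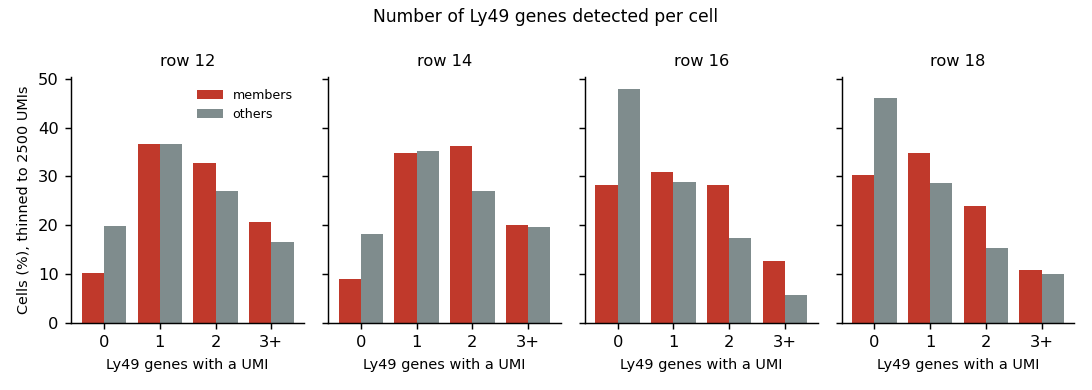
Share of cells (%) by the number of Ly49 genes with a UMI after thinning to 2500 UMIs, for members (red) and other cells (grey) of each hashtag row. Cells with 0 Ly49 genes were 10.1% of members and 19.8% of others in row 12, and 30.2% and 46.1% in row 18.

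Adaptor proteins carry the signal of activating receptors. Fcer1g, the common Fc receptor gamma chain, was at 561, 507, 732 and 707 CPM in members and at 391, 388, 339 and 413 in the other cells. The groups of rows did not overlap (0.70 ± 0.06, adjusted p = 9.16e-12), and without the Ncr1-bearing cells the value was 0.60 (adjusted p = 5.81e-10). Tyrobp, which encodes DAP12, was at 87.8, 87.5, 318 and 317 against 58.3, 52.2, 72.5 and 84.7 CPM, again without overlap (1.38 ± 0.14, adjusted p = 1.79e-10). Without the Ncr1-bearing cells it was 0.68 (adjusted p = 3.91e-05). Hcst, which encodes DAP10, the partner of NKG2D, differed by 0.32 ± 0.05 (adjusted p = 1.46e-05). These were the 3 genes called among 6 adaptors tested, with 0 lower and a median of 0.13, while 2 were lower without TMM scaling.

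**Figure D3:**
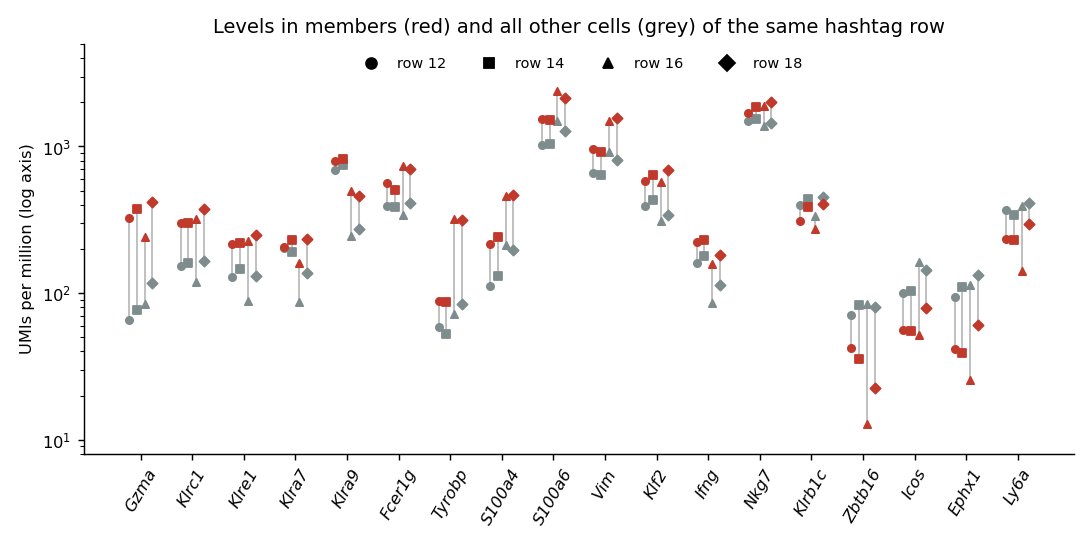
Level in CPM (y axis, log scale) of genes (x axis) in members (red) and in all other cells (grey) of hashtag rows 12, 14, 16 and 18 (marker shapes). Gzma in members lies between 241 and 419, above all 4 values of other cells, and Zbtb16 in members between 12.8 and 42.3, below all 4.

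Calcium-binding S100 proteins, galectins, annexins and cytoskeletal genes, many of them high in effector lymphocytes, were higher as a group: of 12 tested, 10 were higher and 0 lower, with a median of 0.42. Without TMM scaling 8 were higher and 1, S100a11, was lower. S100a4 was at 215, 242, 463 and 466 CPM in members and at 112, 130.1, 211 and 196 in the other cells (1.12 ± 0.07, adjusted p = 2.09e-17). S100a6 was at 1539, 1525, 2387 and 2140.0 against 1017, 1040.3, 1490.0 and 1285 CPM (0.71 ± 0.04, adjusted p = 7.21e-19). In neither gene did the groups overlap, and rows 16 and 18 were above rows 12 and 14 in members and in other cells alike.

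Vim, the gene of the intermediate filament vimentin, was at 959, 922, 1484 and 1569 CPM in members and at 662, 634, 911 and 808 in the other cells, without overlap (0.75 ± 0.05, adjusted p = 5.40e-16). The LIM protein gene Crip1 differed by 0.54 ± 0.05 (adjusted p = 1.79e-12), and Lgals1, the galectin 1 gene, by 0.44 ± 0.05 (adjusted p = 2.17e-09). The annexin genes Anxa6 and Anxa2 differed by 0.42 ± 0.06 (adjusted p = 1.43e-06) and by 0.42 ± 0.05 (adjusted p = 1.28e-07). 3 further calls were less stable to the choice of rows: Lgals3 (0.42 ± 0.11, adjusted p = 0.0137) was lost without row 18 (adjusted p = 0.534), S100a13 (0.25 ± 0.07, adjusted p = 0.0362) without rows 14, 16 or 18 (adjusted p = 0.188, 0.129 and 0.232 in turn) and Anxa1 (0.42 ± 0.10, adjusted p = 0.00906) without rows 14 or 18 (adjusted p = 0.0784 and 0.0744 in turn).

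KLF2 is a transcription factor that keeps T cells quiescent and switches on S1pr1, the receptor through which mature thymocytes leave the thymus. Klf2 itself was at 584, 642, 572 and 690.1 CPM in members and at 392.2, 431, 310.4 and 342 in the other cells, without overlap (0.78 ± 0.06, adjusted p = 1.31e-14). Of the 10 genes of the KLF and egress list, 5 were higher and 0 lower, with a median of 0.49. S1pr1 was a low-level gene at 30.9, 34.8, 25.7 and 33.9 against 14.5, 14.5, 23.8 and 20.4 CPM (1.04 ± 0.18, adjusted p = 9.09e-05). It was found in 7.94% of thinned members and 3.46% of other cells, beside 2.99% of B-like cells. S1pr4, a related receptor, differed by 0.48 ± 0.09 (adjusted p = 1.35e-04), and the KLF family gene Klf3 by 0.47 ± 0.08 (adjusted p = 2.79e-05), its call lost without row 14 (adjusted p = 0.106). Cd69, whose protein removes S1P receptor 1 from the cell surface, was at 139, 177, 86.7 and 189 against 98.7, 133, 77.6 and 119 CPM, higher in 4 of 4 rows (0.54 ± 0.08, adjusted p = 5.96e-06).

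Promoters of genes that were higher together in members are shown from 250 bases before to 50 after the annotated start (RefSeq, GRCm38.p6), for 3 markers given with the rule and for Klrc1. Capitals mark matches on either strand to TGTGGT, the core of the RUNX motif, or to CCACCC, a box bound by KLF factors. TCACAC, a T-box motif, was searched as well and has no match in these 4 windows. Gzma lies at chr13:113100932-113101231 on the minus strand, Fcer1g at chr1:171234300-171234599 on the minus strand, Klf2 at chr8:72318812-72319111 on the plus strand and Klrc1 at chr6:129678924-129679223 on the minus strand.
Gzma: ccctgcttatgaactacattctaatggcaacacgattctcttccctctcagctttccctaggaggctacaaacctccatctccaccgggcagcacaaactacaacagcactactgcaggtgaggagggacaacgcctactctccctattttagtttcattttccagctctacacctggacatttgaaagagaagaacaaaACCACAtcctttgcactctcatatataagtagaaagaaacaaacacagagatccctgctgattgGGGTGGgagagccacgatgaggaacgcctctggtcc
Fcer1g: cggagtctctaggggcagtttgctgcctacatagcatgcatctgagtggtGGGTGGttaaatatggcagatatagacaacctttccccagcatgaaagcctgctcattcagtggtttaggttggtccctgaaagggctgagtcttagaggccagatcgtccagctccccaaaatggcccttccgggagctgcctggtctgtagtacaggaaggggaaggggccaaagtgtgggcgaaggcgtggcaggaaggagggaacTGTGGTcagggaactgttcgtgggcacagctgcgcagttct
Klf2: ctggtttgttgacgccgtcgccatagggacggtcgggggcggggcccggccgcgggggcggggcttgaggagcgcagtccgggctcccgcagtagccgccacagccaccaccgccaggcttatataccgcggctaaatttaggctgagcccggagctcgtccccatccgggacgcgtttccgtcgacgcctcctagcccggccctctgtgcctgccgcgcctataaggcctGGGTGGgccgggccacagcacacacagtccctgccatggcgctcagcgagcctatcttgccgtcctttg
Klrc1: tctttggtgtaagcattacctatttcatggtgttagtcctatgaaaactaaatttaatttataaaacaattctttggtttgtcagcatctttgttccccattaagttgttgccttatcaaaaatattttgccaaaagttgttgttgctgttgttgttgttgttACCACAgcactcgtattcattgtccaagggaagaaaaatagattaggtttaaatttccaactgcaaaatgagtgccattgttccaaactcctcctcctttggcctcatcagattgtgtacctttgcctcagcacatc
The RUNX core was present in Gzma, Fcer1g and Klrc1, and in 16.8% of all 32851 promoters of this length. The KLF box was present in Gzma, Fcer1g and Klf2, and in 31.5% of all. Among the 286 promoters of genes called higher the shares were 18.9% and 38.8%, and among those of all genes tested 12.8% and 35.9%. Among the 136 promoters of genes called lower they were 11.8% and 36.8%. T-box motifs were in 14.5% of all promoters, 13.6% of those called higher, 10.3% of those called lower and 10.6% of those tested. A match describes the letters of the window and is not a bound site.

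Of 11 chemokine and cytokine genes tested, 3 were higher and 2 lower, with a median of 0.26. Ifng, the gene of interferon gamma, was at 223, 228, 157 and 183 CPM in members and at 160.0, 180.3, 85.2 and 113 in the other cells, higher in 4 of 4 rows (0.56 ± 0.08, adjusted p = 5.57e-07). Il4, the signature cytokine gene of iNKT2 cells, was at 11.4, 14.7, 3.21 and 7.54 against 35.03, 36.9, 24.3 and 34.96 CPM, without overlap (-1.56 ± 0.21, adjusted p = 6.49e-07). Ltb, the lymphotoxin beta gene, differed by -0.19 ± 0.04 (adjusted p = 0.00451) and lost its call without row 14 (adjusted p = 0.170).

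The chemokine genes Ccl3 and Ccl4, of the same chemokine family as Ccl5, were seen in few cells. Ccl4 was found in 5.897% of thinned members and 2.09% of others, higher in 3 of 4 rows (1.13 ± 0.21, adjusted p = 1.59e-04), with the call lost without row 14 (adjusted p = 0.168). Ccl3 was found in 1.56% and 0.662% (1.76 ± 0.36, adjusted p = 9.87e-04), its call lost without row 12 (adjusted p = 0.471). Xcl1, the lymphotactin gene, gave 285, 266, 514 and 353 against 288, 297, 236 and 272 CPM (0.26 ± 0.09, adjusted p = 0.0925).

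Of 10 chemokine receptors tested, 1 was higher and 2 lower, with a median of 0.16. Cxcr6, a receptor of resident lymphocytes, differed by 0.39 ± 0.07 (adjusted p = 2.61e-04). Cxcr3 was lower in 3 of 4 rows (-0.23 ± 0.07, adjusted p = 0.0365), lost without rows 12, 14 or 18 (adjusted p = 0.248, 0.405 and 0.235 in turn), and Ccr4, on 4 UMIs in members (-2.15 ± 0.61, adjusted p = 0.0269), was lost without rows 14, 16 or 18 (adjusted p = 0.166, 0.136 and 0.223 in turn).

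Of 11 adhesion and residency genes, 3 were higher and 2 lower, with a median of 0.05. The beta 1 integrin gene Itgb1 was at 289, 328, 279 and 281 CPM in members and at 239, 226, 143 and 163 in the other cells (0.61 ± 0.07, adjusted p = 2.94e-08), and Itgal, the alpha chain of LFA-1, at 187, 212, 254 and 199.9 against 257, 274, 288 and 296 CPM (-0.34 ± 0.07, adjusted p = 4.68e-04), neither with overlap. The integrin genes Itgae, which encodes CD103, and its partner Itgb7 differed by 0.33 ± 0.09 (adjusted p = 0.0170) and by 0.27 ± 0.06 (adjusted p = 0.00116), the first losing its call without rows 12, 16 or 18 (adjusted p = 0.317, 0.0998 and 0.0862 in turn) and the second without row 14 (adjusted p = 0.0753).

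**Figure D4:**
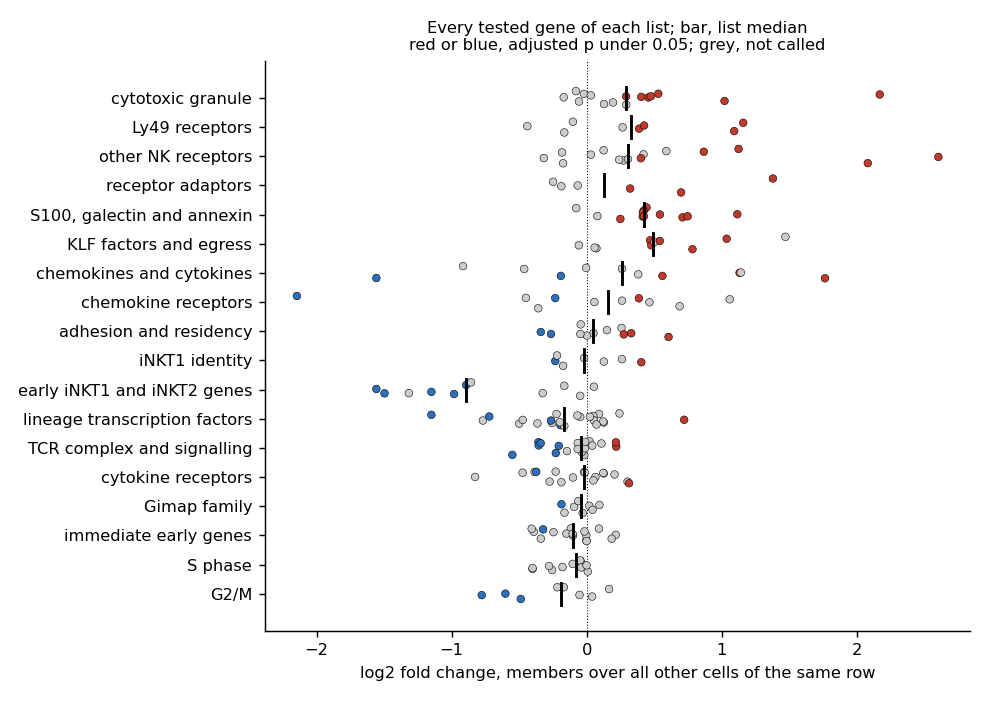
Log2 fold change of members over all other cells of the same row (x axis) for every tested gene of the gene lists (y axis), with list medians as bars, and genes at adjusted p under 0.05 in red (higher) or blue (lower). The medians of the lists drawn run from -0.89 for early iNKT1 and iNKT2 genes to 0.49 for KLF factors and egress genes, beside 0.00 over all genes tested.

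Of 13 early iNKT1 and iNKT2 genes listed, 11 were tested, 5 were lower in members and 0 higher, with a median of -0.89. DESeq2 called 2 of them, both lower. Izumo1r was used to choose the members and was not tested. The other cells include 1715 with an Izumo1r UMI, so genes that go with Izumo1r can be lower by that choice alone. Zbtb16, which encodes PLZF, the transcription factor that directs iNKT cell development, was at 42.3, 35.6, 12.8 and 22.6 CPM in members and at 70.5, 83.1, 83.7 and 80.3 in the other cells. The groups of rows did not overlap (-1.15 ± 0.14, adjusted p = 8.98e-08). The costimulatory receptor gene Icos was at 56.1, 54.97, 51.4 and 79.2 against 100.3, 104, 164 and 143 CPM, also without overlap (-0.89 ± 0.11, adjusted p = 3.24e-08). After thinning, Zbtb16 was found in 7.58% of members and 16.02% of others, and Icos in 13.4% and 23.1%. The coreceptor gene Cd4 was at 12.2, 10.8, 6.42 and 5.66 against 26.3, 32.9, 35.5 and 26.9 CPM (-1.50 ± 0.23, adjusted p = 6.25e-06), and the creatine kinase gene Ckb differed by -0.98 ± 0.18 (adjusted p = 1.84e-04).

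Of 23 lineage transcription factors tested, 1 was higher and 4 lower, with a median of -0.17. Tox, a factor of developing T cells, was lower (-0.72 ± 0.14, adjusted p = 3.52e-04), while Tbx21 was at 224, 204, 183 and 196 against 214, 209.8, 166 and 170.4 CPM (0.13 ± 0.07, adjusted p = 0.442) and Gata3, which directs iNKT2 cells, differed by -0.05 ± 0.10 (adjusted p = 0.910). Id2, an inhibitor of E proteins, differed by -0.19 ± 0.05 (adjusted p = 0.00451), with the call lost without rows 12 or 14 (adjusted p = 0.233 and 0.0733 in turn). Zfp683, which encodes the residency factor Hobit, differed by -0.26 ± 0.07 (adjusted p = 0.0209), lost without rows 12, 14 or 16 (adjusted p = 0.349, 0.356 and 0.0617 in turn). Nfil3, a factor of NK cell development, was the 1 higher gene (0.72 ± 0.21, adjusted p = 0.0286), lost without rows 12, 14 or 18 (adjusted p = 0.193, 0.236 and 0.0909 in turn). Without TMM scaling 0 of the list were higher and 6 lower, with the call of Nfil3 lost (adjusted p = 0.0564) and Ikzf1 and Ikzf2 passing as lower (adjusted p = 0.00829 and 0.0323).

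Of 20 genes of the T cell receptor complex and its signalling, 6 were lower and 2 higher, with a median of -0.04. Cd5, a brake on receptor signals whose level follows their strength, was at 135, 137, 170.2 and 187 CPM in members and at 192, 219, 288 and 287 in the other cells, without overlap (-0.55 ± 0.07, adjusted p = 3.02e-07). Cd6, of the same family, differed by -0.36 ± 0.08 (adjusted p = 0.00399). The costimulatory receptor gene Cd28 differed by -0.34 ± 0.07 (adjusted p = 0.00170), its call lost without row 18 (adjusted p = 0.0537). The kinase gene Zap70 (-0.23 ± 0.06, adjusted p = 0.0176) was lost without rows 12, 14 or 16 (adjusted p = 0.167, 0.113 and 0.0758 in turn), and the receptor constant gene Trbc2 (-0.21 ± 0.06, adjusted p = 0.0284) without rows 16 or 18 (adjusted p = 0.145 and 0.350 in turn). The higher genes were Thy1 (0.22 ± 0.05, adjusted p = 0.00116) and Cd2 (0.22 ± 0.06, adjusted p = 0.0233), the latter lost without rows 14, 16 or 18 (adjusted p = 0.0994, 0.163 and 0.189 in turn). Cd3e gave 1236, 1342, 1131 and 1224 against 1276, 1399, 1341 and 1424 CPM (-0.05 ± 0.04, adjusted p = 0.693). Without TMM scaling 1 gene of the list was higher and 7 lower, with Cd3e lower (-0.12, adjusted p = 0.0459) and the call of Cd2 lost (adjusted p = 0.174).

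Ly6a, the gene of Sca-1, was at 235, 231, 141 and 298 CPM in members and at 369, 342, 391.5 and 409.6 in the other cells, without overlap (-0.59 ± 0.07, adjusted p = 5.33e-08). Ly6c2 of the same family went the other way, at 2792, 2983, 2326 and 2651 against 2241, 2059, 1852 and 2055 CPM (0.47 ± 0.04, adjusted p = 2.11e-13), and these were the called genes among 6 (median -0.22). Bcl2a1d and Bcl2a1b, near-identical copies of the survival gene A1 whose reads are hard to tell apart, differed by -0.72 ± 0.11 (adjusted p = 1.06e-05) and by -0.37 ± 0.07 (adjusted p = 9.02e-04). They were the lower genes among 11 of the Bcl2 family (median 0.05), and Bid, higher (0.52 ± 0.15, adjusted p = 0.0300), was lost without rows 12, 14, 16 or 18 (adjusted p = 0.307, 0.0707, 0.0537 and 0.112 in turn).

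The remaining lists held few calls. Of 17 cytokine receptors (median -0.02), the interferon gamma receptor gene Ifngr1 was higher (0.31 ± 0.05, adjusted p = 3.28e-05), Il21r was lower (-0.37 ± 0.09, adjusted p = 0.00585) and lost without rows 12 or 14 (adjusted p = 0.103 and 0.0720 in turn), and Il2rb gave -0.02 ± 0.04 (adjusted p = 0.920). Of 8 Gimap GTPase genes (median -0.05), 1 was lower, Gimap6 (-0.19 ± 0.06, adjusted p = 0.0376), lost without rows 12, 14, 16 or 18 (adjusted p = 0.121, 0.364, 0.107 and 0.0587 in turn), and without TMM scaling 3 were, with Gimap4 and Gimap5 at an adjusted p of 0.0312 and 0.0397. Of 16 immediate early genes (median -0.10), 1 was lower, Tnfaip3 (-0.32 ± 0.08, adjusted p = 0.00783), an inhibitor of NF-κB signals, lost without rows 12 or 14 (adjusted p = 0.170 and 0.119 in turn).

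Of 13 interferon-stimulated genes (median 0.09), 1 was higher, Ifi27l2a (0.20 ± 0.06, adjusted p = 0.0295), lost without rows 14, 16 or 18 (adjusted p = 0.189, 0.129 and 0.209 in turn). Of 11 MHC class I genes (median -0.01), 1 was higher, H2-Q7 (0.23 ± 0.06, adjusted p = 0.0116), lost without rows 14, 16 or 18 (adjusted p = 0.106, 0.0594 and 0.0656 in turn). In the G2/M list 3 of 8 genes were lower (median -0.19), and 0 with DESeq2, with cells matched on depth or with the gate set on thinned cells: Mki67 (-0.60 ± 0.15, adjusted p = 0.00796) was lost without rows 14 or 18 (adjusted p = 0.125 and 0.303 in turn), Ube2c (-0.49 ± 0.14, adjusted p = 0.0301) without rows 16 or 18 (adjusted p = 0.164 and 0.353 in turn) and Cenpf (-0.78 ± 0.23, adjusted p = 0.0428) without rows 12, 14 or 18 (adjusted p = 0.207, 0.169 and 0.240 in turn). Without cells that bear markers of other lineages Ube2c was at -0.29 (adjusted p = 0.377), Cenpf at -0.52 (adjusted p = 0.390) and Mki67 at -0.45 (adjusted p = 0.0767).

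With the scaling of the reported fit neither edgeR nor DESeq2 called a gene among 6 checkpoint and TNF receptors (median -0.10) or 12 S phase genes (median -0.08), where 2 and 2 had an unadjusted p under 0.05 in edgeR. Without TMM scaling Pdcd1, the gene of PD-1, was lower (-0.91, adjusted p = 0.0355). Kidins220, the gene targeted in T-KO mice, was at 24.4, 34.8, 19.3 and 22.6 CPM in members and at 29.4, 35.2, 17.2 and 20.1 in the other cells (0.00 ± 0.17, adjusted p = 1.00).

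The ribosomal protein genes were listed after their values were seen. The list takes every tested gene whose symbol starts with Rps or Rpl, such as Rpl10-ps3, and not all of these need encode a ribosomal protein. Of 92 tested, 68 were higher and 0 lower, with a median of 0.16, and without TMM scaling 34 were higher and 0 lower. With cells matched on depth 18 were higher and 1 lower (median 0.09), with the gate set on thinned cells 16 were higher (median 0.07), and without the row as a block 14. They took up 25.5%, 25.1%, 25.2% and 24.5% of all UMIs in members and 24.4%, 23.8%, 23.1% and 22.6% in the others, so that members were higher within each row and the groups of rows did not overlap. Of 15 genes that build ribosomes (median 0.07), 1 was higher, Npm1 (0.18 ± 0.04, adjusted p = 0.00296), the nucleophosmin gene, which lost its call without row 14 (adjusted p = 0.0578) and without TMM scaling (adjusted p = 0.0887).

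Outside the lists, the 15 largest rises among genes with at least 50 CPM in the higher class and the same direction in 4 rows were led by Gm4208, a long non-coding RNA gene at chr1:62821355-62832370 (GRCm38), which was at 48.8, 72.8, 41.8 and 41.5 CPM in members and at 10.99, 17.1, 11.2 and 9.72 in the other cells (2.15 ± 0.16, adjusted p = 1.03e-14). Gramd3 (1.13 ± 0.11), the potassium channel gene Kcnj8 (1.06 ± 0.11), Glipr2 (1.03 ± 0.10), Emp3 (0.82 ± 0.06) and the adhesion gene Jaml (0.73 ± 0.12) followed. Then came Fgf13 (0.62 ± 0.14), the nucleotide hydrolase gene Samhd1 (0.62 ± 0.09), Cldnd1 (0.59 ± 0.13), the glucocorticoid-induced gene Tsc22d3 (0.58 ± 0.10) and Hopx (0.58 ± 0.05), a homeodomain gene of effector T cells. Riox2 (0.57 ± 0.13), the Ras activator gene Rasgrp2 (0.56 ± 0.08), the phosphodiesterase gene Pde2a (0.56 ± 0.09) and Nfic (0.54 ± 0.13) completed the group. Fgf13 lost its call without row 18 (adjusted p = 0.0518), Riox2 without row 14 (adjusted p = 0.134) and Nfic without row 14 (adjusted p = 0.172).

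Among the 15 largest falls, Ephx1, an epoxide hydrolase gene, was at 41.5, 38.7, 25.7 and 60.3 CPM in members and at 94.5, 111, 114 and 134 in the other cells, without overlap (-1.30 ± 0.12, adjusted p = 1.25e-11). The antibody genes Igha (-1.36 ± 0.19) and Igkc (-1.31 ± 0.17) rested on single cells: 1 of the other cells held 1007 of the 1851 Igha UMIs and 1 held 970 of the 2002 Igkc UMIs. Igha lost its call without row 12 (adjusted p = 0.764) and Igkc without row 12 (adjusted p = 0.398). Drosha, the nuclease gene that starts microRNA processing, differed by -1.03 ± 0.15 (adjusted p = 4.55e-06). Tspan32 (-0.71 ± 0.11), the receptor segment Trbv13-1 (-0.71 ± 0.08), Ramp1 (-0.68 ± 0.08), Kcnq5 (-0.64 ± 0.15), Abcb9 (-0.63 ± 0.13) and Camk4 (-0.55 ± 0.12) were lower as well. Ramp1, Kcnq5, Abcb9 and Camk4 lost their calls under at least 1 alternative in edgeR or DESeq2. Their highest adjusted p over the alternatives was 0.0565, 0.432, 0.0965 and 0.692 in turn.

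The last of them were H2-Eb1 (-0.60 ± 0.14), an MHC class II gene, which lost its call without rows 16 or 18 (adjusted p = 0.0721 and 0.272 in turn) and without cells that bear markers of other lineages (-0.02, adjusted p = 0.972), the transcription factor gene Maf (-0.59 ± 0.14), lost without row 14 (adjusted p = 0.189), Atp9b (-0.58 ± 0.14), lost without row 14 (adjusted p = 0.166), the interferon-induced GTPase gene Igtp (-0.53 ± 0.12), lost without row 14 (adjusted p = 0.0707), and the kinase gene Plk3 (-0.52 ± 0.14), lost without rows 12, 14 or 18 (adjusted p = 0.0851, 0.0580 and 0.0514 in turn). On the list of myeloid genes, Cst3 gave 282 of 300 CPM in members and 285 of 322 in the others. A cell with 3 UMIs on that list therefore need not be a myeloid cell. At least 3 UMIs on the B cell list were found in 0.221% of members and 0.742% of the others. For the DP thymocyte list these shares were 0.221% and 0.433%, and for the myeloid list 8.41% and 8.45%. Cd79a, a B cell receptor gene, and Lyz2, the lysozyme gene, were the called genes of those lists, both lower, by -0.76 ± 0.22 (adjusted p = 0.0300) and -1.62 ± 0.34 (adjusted p = 0.00138), the first lost without rows 12, 14 or 16 (adjusted p = 0.142, 0.215 and 0.0936 in turn) and the second without row 18 (adjusted p = 0.0825). Neither edgeR nor DESeq2 called a gene on the lists of DN and γδ thymocytes (6 tested, 1 with an unadjusted p under 0.05 in edgeR) or iNKT17 cells (3 tested, 0 such), and none of the B, myeloid and DP genes was at 0 in members. The part of other cells in these falls was tested only by leaving out cells that bear their transcripts.

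The cells nearest to the members by the rule were the 798 with 1 to 3 Ccl5 UMIs and no Izumo1r UMI. Against them, in 1 fit of 4 classes per row, 85 genes were higher (0.821% of 10351) and 21 lower (0.203%), 1.02% in all. Of the 21 lower genes 9 encode antibody chains, and Jchain encodes a protein that joins them. Single cells carried much of these counts: 1 of the other cells held 6837 of the 6844 UMIs of Igkv3-10, and 1 held 2421 of the 2506 of Ighv10-1. This comparison and the one above share the members' counts, and 100 of the 106 genes were called in both. The 4 tested markers given with the rule were all higher, and since they were picked with results of these data in view they are no independent evidence. Gzma was at 352 CPM against 133 over the 4 rows together, higher in 3 of 4 rows, with a log2 fold change of 1.41 (adjusted p = 9.05e-08). Fcer1g differed by 0.49 (adjusted p = 0.00250), Klf2 by 0.49 (adjusted p = 8.38e-05) and Klra7 by 0.55 (adjusted p = 0.0390).

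Of the 12 S100, galectin and annexin genes 6 were higher against these nearest cells, and of the 8 Ly49 genes 3. Of the 11 early iNKT1 and iNKT2 genes 2 were lower against them and 0 higher. Klre1 differed by 0.82 (adjusted p = 5.02e-06), S100a4 by 0.64 (adjusted p = 4.65e-06) and Klrc1 by 0.49 (adjusted p = 8.85e-04). Zbtb16 was lower at -0.87 (adjusted p = 0.0100), as were Il4 at -1.50 (adjusted p = 7.18e-04) and Ly6a at -0.56 (adjusted p = 7.18e-04). Icos gave -0.46 (adjusted p = 0.254), Cd5 -0.25 (adjusted p = 0.282) and Cd4 -0.65 (adjusted p = 0.621), all short of the threshold.

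Against the 1225 cells that held Izumo1r and no Ccl5, 531 genes were called (5.13%), 305 higher (2.95%) and 226 lower (2.18%). The rule sets these classes apart by Izumo1r and Ccl5, so genes that go with either can differ by that choice alone. The p-values of this comparison are no independent evidence. Gzma differed by 3.23 (adjusted p = 3.13e-18), Klrc1 by 2.06 (adjusted p = 2.08e-20), S100a4 by 1.70 (adjusted p = 4.98e-19) and Klf2 by 1.21 (adjusted p = 2.93e-16). Zbtb16 differed by -1.68 (adjusted p = 1.19e-10) and Icos by -1.35 (adjusted p = 3.87e-10). Klrb1c was lower here at -0.29 (adjusted p = 0.00217), and so was Cd3e at -0.21 (adjusted p = 6.32e-04), while Tbx21 gave 0.15 (adjusted p = 0.463). Of the 15 granule genes 9 were higher and 2 lower, and of the 20 T cell receptor genes 2 were higher and 9 lower. Against the 2831 remaining cells of the same fit, 329 genes were called (3.18%), 242 higher (2.34%) and 87 lower (0.84%).

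Levels along the number of Ccl5 UMIs, in cells without Izumo1r, did not all change at the threshold. Gzma was at 95.4 (88.6 to 103) CPM in the 2341 cells with 0 Ccl5 UMIs (95% Poisson interval), at 133 (119.8 to 147) at 1 to 3 and at 156 (127 to 189.9) at 4 to 5. It was at 158 (133 to 187) in the 241 members with 6 to 9, at 432 (393 to 474) in the 278 with 10 to 19 and at 612 (559 to 668) in the 202 with 20 or more. The intervals on either side of the threshold overlapped. The level at 10 to 19 was above that at 6 to 9 in each of the 4 rows, but at 20 or more it went from 958 to 441 in row 18 and from 119 to 768 in row 16.

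Klf2 was at 433, 470.4, 532, 574, 617 and 750.3 CPM over the same 6 steps, and Fcer1g at 405, 446, 528, 499, 602 and 677. Icos was at 104, 85.7, 67.7, 64.5, 56.3 and 49.04, lower at each step. S1pr1 was at 15.2 (12.6 to 18.3) in cells with 0 Ccl5 UMIs and at 44.1 (30.9 to 61.1) in those with 20 or more. Zbtb16 was at 63.6 (54.7 to 73.7) at 1 to 3 Ccl5 UMIs and at 28.4 (16.8 to 44.8) at 4 to 5, without overlap of the intervals. The step at 4 to 5 rests on 18 Zbtb16 UMIs in 183 cells, with row 16 at 0. At 6 to 9 Zbtb16 was at 39.6 (27.6 to 55.1), an interval that overlaps that at 1 to 3. It was at 35.0 at 10 to 19 and at 30.7 at 20 or more. Klra7 was at 181, 153, 250.5, 223, 172 and 232 over the 6 steps and so changed in no single direction. These steps share 1 library, and the median depth was 3185 UMIs at the lowest step and 3660.5 at the highest.

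**Figure D5:**
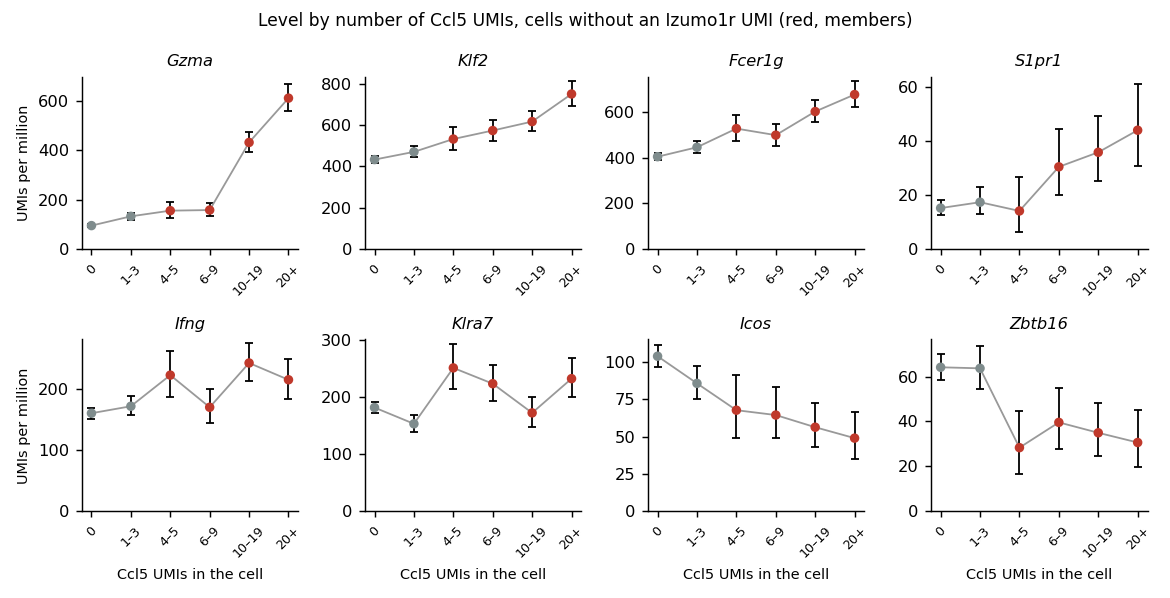
Level in CPM (y axis) by the number of Ccl5 UMIs in the cell (x axis), over cells of the 4 rows without an Izumo1r UMI, with 95% Poisson intervals as bars and members in red. Gzma goes from 158 at 6 to 9 Ccl5 UMIs to 432 at 10 to 19, and Icos from 104 at 0 to 49.04 at 20 or more.

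The markers coincided only in part in single members at 2500 UMIs. Klf2 was found in 80.3% of the members with Gzma and in 71.4% of those without, higher in 4 of 4 rows. Fcer1g was found in 66.2% of those with Klra7 and in 54.2% of those without, higher in 3 of 4 rows, and Gzma in 22.8% and 20.9%, higher in 2. Ifng was found in 37.9% of those with Fcer1g and in 29.9% of those without, higher in 4 of 4 rows. These shares rest on 831 cells and are a description.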

How the data were processed

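The UMI counts per gene, cell and hashtag that the authors deposited come from 1 droplet library and its hashtag library, made with Cell Ranger (6.0.0 per the file header) on mm10, with Seurat also named in the submitters' processing notes. The members and gene lists were chosen with earlier results of these data known. Rows 11 to 18 held 34861260 hashtag UMIs and the other rows 25599. The labels name hashtags 1 to 8, and no source used here pairs them, so no row was given a group. The 80% rule drops cells whose hashtag UMIs are split more evenly between rows. Unevenly stained doublets across rows can have stayed, as can doublets within a row, and no doublet caller was run.

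Counts were summed per row and class and tested with edgeR 4.0.16 (R 4.3.3) with TMM factors, the row as a block, at least 50 UMIs over the 4 rows and Benjamini-Hochberg adjusted p under 0.05 over 10351 genes. The procedure was tested on simulated data. The sums held 311317 to 6016661 UMIs per row and class. Levels (CPM) use the summed totals without TMM, and fold changes use TMM. Clopper-Pearson and Poisson intervals (95%) cover counting error only. Shares of cells with a transcript used cells thinned to 2500 UMIs, which left out 73 members and 927 others. Named genes were the markers, the called genes of the lists and the 15 largest rises and falls elsewhere with 1 direction in 4 rows. Alternatives covered DESeq2 1.42.0, scaling, the block, filters, the gate, the hashtag rule, depth, other cell types and each row left out. Python 3.11.15, numpy 2.4.6, pandas 2.3.3, scipy 1.17.1 and matplotlib 3.10.9 were used. Reads of near-identical paralogs and free RNA were not separated. 1 gene of the T cell receptor list counts in its totals and is not reported here by name.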

Additional observations from a re-analysis of the deposited data

Results flagged for a closer look

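Cells that meet the rule were also found in the hashtag rows outside the comparison. Row 11 held 24 among 1176 assigned cells (2.04%, 95% Clopper-Pearson interval 1.31 to 3.02%), and row 17 held 10 among 583 (1.72%, 0.826 to 3.13%). The lower bounds of both intervals lay above the 0.472% of B-like cells with at least 4 Ccl5 UMIs (2 of 424), the level taken here for free RNA. These rows are given for that reason. Rows 13 and 15 held 11 among 1601 (0.687%) and 9 among 889 (1.01%). Their shares were above that level too, but their lower bounds, 0.343% and 0.464%, were below it. The source of these cells was not tested.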

How the results depend on the processing

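Of 109 named genes called against all other cells, 33 kept their direction and call under every alternative run, among them Gzma, Fcer1g, Klf2, Klrc1, Klre1, S100a4, S100a6, Vim, Zbtb16 and Icos. The 439 calls (288 higher, 151 lower) became 196 with DESeq2 (160 and 36), 181 with cells matched on depth (120 and 61), 202 with the gate set on thinned cells (134 and 68), 245 with a stricter hashtag assignment (185 and 60) and 1103 with a looser cell filter (637 and 466). Without TMM 178 were higher and 271 lower. The share of calls that were higher was thus 39.6% in place of 65.6%. Leaving out the replicate block, that is the hashtag row, gave 96 calls (73 and 23). Leaving out 1 row gave 243 to 378 calls (170 to 258 higher, 73 to 120 lower), with 243 without row 14 and 290 without row 18. Against the cells with 1 to 3 Ccl5 UMIs the 106 calls became 48 to 109, with 48 without row 18, 53 without row 12 and 61 without row 14. Against the Izumo1r-bearing cells the 531 calls became 344 to 427, with 344 without row 18. The share of members with the stricter hashtag assignment was 18.7% in row 14, 19.9% in row 16 and 12.5% in row 18, and with the looser cell filter 15.6%, 13.2% and 8.72% in rows 12, 14 and 18. Of 2172 values of named genes under alternatives 4 changed direction: Igha (0.00885, stricter hashtag assignment), Igkc (0.0798, cells matched on depth) and Gzmc (-0.19 without Ncr1-bearing cells, chosen after seeing the data, and -0.13 without cells of other lineages). Leaving out rows, cells or UMIs also lowers the counts, and the cause of the changes in the number of calls was not tested. Genes with few UMIs in members, such as Klra8, Ccl3 and Ccr4, are limited by depth.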
